A study of Homo sapiens with 24 samples.

Results

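H4K20me3, the trimethylated form of lysine 20 on histone H4, was compared between 2 ways of lowering it in HN-SCC-151, an HPV-negative line from a head and neck squamous cell carcinoma. The comparison covers the broad H4K20me3 peaks of the 3 libraries whose titles name A-196 and of the 4 whose titles name siSUV420H1. These are 7 of the 14 H4K20me3 libraries with a peak list and of the 24 samples in the series. A-196, given at 2.5 µM, is a small molecule that inhibits SUV420H1 and its paralog SUV420H2, whereas siSUV420H1 stands for siRNAs directed at SUV420H1 alone. Both treatments lasted 6 days, and the cells are labelled wild type throughout. The controls, shown beside the results, were 3 libraries of cells given DMSO and 4 of cells given the control siRNAs, siNC. The question is which domains and genes still carry the mark in each treated state.

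The design names 3 dishes per condition and 500000 cells per reaction, so some of the 4 siSUV420H1 libraries must share a dish, and p-values below measure only the spread between these libraries. Peaks were called against the IgG library of DMSO cells in the A-196 and DMSO libraries and against a second IgG library, whose label names no treatment, in the siSUV420H1 and siNC libraries. Treatment, control treatment and IgG library therefore cannot be told apart in any difference between A-196 and siSUV420H1. The sequencing depth of the libraries is unknown, and the lists hold positions only, so a region without a peak may carry the mark below the calling threshold.

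The genes KMT5B and KMT5C encode SUV420H1 and SUV420H2, the enzymes that add the last methyl groups to H4K20 after KMT5A has placed the first. The fully methylated form marks compacted, silent chromatin, and is known from the repeats around centromeres and at chromosome ends, from imprinted loci and from arrays of zinc finger genes. The assay, CUT&RUN, uses an antibody to bring a nuclease to the mark, which cuts out the DNA around the marked histones, and the fragments are sequenced. A protein-coding gene is called marked below where a library's peaks cover 200 bp or more of its window, the annotated span with 2 kb added before and after. KMT5B and KMT5C were free of peaks in all 14 libraries, and KMT5A carried 0.353 kb in A-196 replicate 2 alone. Neither RNA nor protein of the target is measured by these lists, so they do not check the knockdown.

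The 3 outcomes at a gene start are shown by 6 promoters, each the 250 bases before the annotated start in the RefSeq table of GRCh38.p14. They were chosen after the values were seen, as the genes with the longest covered span whose whole window lay under the peaks of every library of a class and under no peak of the other treated group. Letters are read 5′ to 3′ on the gene's strand, and capitals mark CpG dinucleotides, the sites of DNA methylation, which is also a mark of silent promoters. The first pair lay under peaks in every A-196 library and in no siSUV420H1 library.
SEPTIN14, chr7:55862753-55863002, minus strand: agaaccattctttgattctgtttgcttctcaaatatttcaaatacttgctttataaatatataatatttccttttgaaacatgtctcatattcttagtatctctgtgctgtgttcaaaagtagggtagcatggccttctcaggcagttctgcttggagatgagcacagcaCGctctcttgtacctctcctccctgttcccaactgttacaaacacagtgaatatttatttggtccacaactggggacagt
SERPINB7, chr18:63752807-63753056, plus strand: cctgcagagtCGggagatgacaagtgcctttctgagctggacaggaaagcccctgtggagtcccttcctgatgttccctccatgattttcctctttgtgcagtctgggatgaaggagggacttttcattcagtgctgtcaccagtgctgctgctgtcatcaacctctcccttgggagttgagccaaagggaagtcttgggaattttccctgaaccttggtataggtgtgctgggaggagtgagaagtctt
The next pair lay under peaks in every siSUV420H1 library and in no A-196 library.
NOVA1, chr14:26598034-26598283, minus strand: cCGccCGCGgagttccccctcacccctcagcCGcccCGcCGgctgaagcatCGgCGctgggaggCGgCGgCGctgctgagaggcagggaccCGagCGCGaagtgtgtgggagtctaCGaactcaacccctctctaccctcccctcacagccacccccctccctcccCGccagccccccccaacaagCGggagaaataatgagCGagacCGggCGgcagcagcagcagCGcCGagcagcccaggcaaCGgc
TPTE, chr21:10521333-10521582, plus strand: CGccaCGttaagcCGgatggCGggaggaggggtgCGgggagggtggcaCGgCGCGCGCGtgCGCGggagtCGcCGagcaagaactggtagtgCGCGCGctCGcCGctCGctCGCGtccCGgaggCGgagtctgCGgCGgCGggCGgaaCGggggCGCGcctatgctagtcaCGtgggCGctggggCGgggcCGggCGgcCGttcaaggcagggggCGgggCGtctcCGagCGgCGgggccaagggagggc
The last pair lay under peaks in all 7.
ZNF91, chr19:23395472-23395721, minus strand: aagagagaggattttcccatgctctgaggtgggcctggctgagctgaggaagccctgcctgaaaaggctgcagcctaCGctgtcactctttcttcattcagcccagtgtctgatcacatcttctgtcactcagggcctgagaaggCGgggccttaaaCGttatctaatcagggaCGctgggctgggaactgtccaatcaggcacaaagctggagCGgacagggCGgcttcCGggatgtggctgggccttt
ZNF678, chr1:227563306-227563555, plus strand: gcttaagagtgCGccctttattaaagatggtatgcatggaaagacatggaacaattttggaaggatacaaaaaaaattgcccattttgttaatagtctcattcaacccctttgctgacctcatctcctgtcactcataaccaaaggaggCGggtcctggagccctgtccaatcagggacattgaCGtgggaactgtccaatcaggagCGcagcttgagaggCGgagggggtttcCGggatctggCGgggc

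These windows differed in CpG content. The windows of SEPTIN14 and SERPINB7 held 1 CpG each, those of ZNF91 and ZNF678 held 7 each, and those of NOVA1 and TPTE held 23 and 42. The median over all 15842 coding genes with a promoter entry (79.7% of those examined) was 17 CpG and 62% GC. A promoter lay under peaks, with at least 200 of its bases covered, in every A-196 and no siSUV420H1 library at 22 genes (0.139% of the promoters), with a median of 14 CpG. In the opposite class were 75 genes (0.473%) with a median of 10 CpG, and 140 (0.884%) were covered in all 7 libraries with a median of 16.5. Zinc finger genes made up 12 of the 22, 17 of the 75 and 83 of the 140, against 472 of all 15842. They were also 239 of the 1033 promoters covered in any treated library, and the share in the siSUV420H1 class was near that share. The 12 in the A-196 class were ZNF132, ZNF17, ZNF256, ZNF440, ZNF446, ZNF549, ZNF584, ZNF586, ZNF587, ZNF74, ZSCAN22 and ZSCAN4. Among them ZNF256, ZNF446, ZNF584 and ZSCAN22 lie in 1 stretch of chromosome 19 (57814001 to 58534000), so the 12 are not separate loci. Of the 22, 8 were covered in every DMSO library and 10 in none, and 20 were covered in no siNC library. Of the 75, 54 were covered in every siNC library and 8 in none, and 31 were covered in no DMSO library. A-196 libraries covered 452 ± 70.0 (SD, n = 3) promoters in all and siSUV420H1 libraries 428 ± 28.5 (n = 4), a difference within the spread between libraries (exact two-sided permutation p = 0.543), beside 665 ± 51.9 in DMSO and 569 ± 7.14 in siNC.

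The gene bodies behind 2 of these promoters did not always follow them. NOVA1, a neuronal splicing regulator, was covered over 11, 9 and 29 kb in A-196 replicates 1 to 3 and over 147, 159, 142 and 157 kb in siSUV420H1 replicates 1 to 4. SERPINB7, a serpin made in keratinocytes, was covered over 15.9, 25.3 and 28.9 kb after A-196 and over 36.0 to 39.0 kb after siSUV420H1, although its promoter lay under peaks after A-196 only. The groups did not overlap at either gene.

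Less of the genome lay under H4K20me3 peaks after A-196 than after SUV420H1 knockdown. The A-196 libraries covered 79.6, 104 and 107 Mb and the siSUV420H1 libraries 124, 130, 118 and 126 Mb. Every A-196 library lay below every siSUV420H1 library, beside means of 148 ± 4.29 Mb in DMSO and 188 ± 5.49 Mb in siNC. The difference was -0.37 on the log2 Mb scale (exact two-sided permutation p = 0.0286, the smallest that 3 against 4 libraries can give, and 0.0429 after Benjamini-Hochberg adjustment over 6 measures). Counted as a doubled tail instead, the smallest p is 0.0571. The control states already differed in the same direction, by -0.34 between DMSO and siNC. The difference from each arm's own control was -0.62 for A-196 and -0.59 for siSUV420H1, and these differed by -0.03 (exact permutation within arms, p = 0.853).

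The domains left after A-196 were also narrower. The median peak width was 6, 6 and 7 kb in the A-196 libraries and 9 kb in each siSUV420H1 library. Peaks of at least 50 kb numbered 93, 69 and 171 after A-196 and 187, 234, 179 and 211 after siSUV420H1. Mean peak width was 9.33 ± 1.61 kb against 12.6 ± 0.164 kb. None of these measures overlapped between the groups, and all 3 had an adjusted p of 0.0429 in the same exact permutation test. With group medians in place of means, neither these nor covered length passed (exact permutation, adjusted p = 0.114, and 0.214 for median width). Peaks of 5 to under 10 kb held 53.6% ± 13.3 of the covered bases after A-196, 31.4% ± 0.807 after siSUV420H1, 20.5% in DMSO and 28.6% in siNC. When only peaks of at least 10 kb were kept, median and mean widths were greater after A-196 by 1 and 1.59 kb.

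Neither the number of peaks nor the number of marked genes separated the groups. There were 10589 ± 2572 peaks after A-196 and 9874.5 ± 408 after siSUV420H1 (exact permutation p = 0.771). Marked coding genes numbered 2710 ± 848 and 2353 ± 84.5 (exact permutation p = 0.657). A-196 replicate 2 stood apart with 13464 peaks and 3684 marked genes, against 8505 and 9798 peaks and 2138 and 2308 genes in the others. Without it both differences turned, to -723 peaks and -130 genes. With peaks of at least 10 kb alone they also turned, to -2284 peaks and -646 genes, and both then passed (exact permutation, adjusted p = 0.0429).

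**Figure D1:**
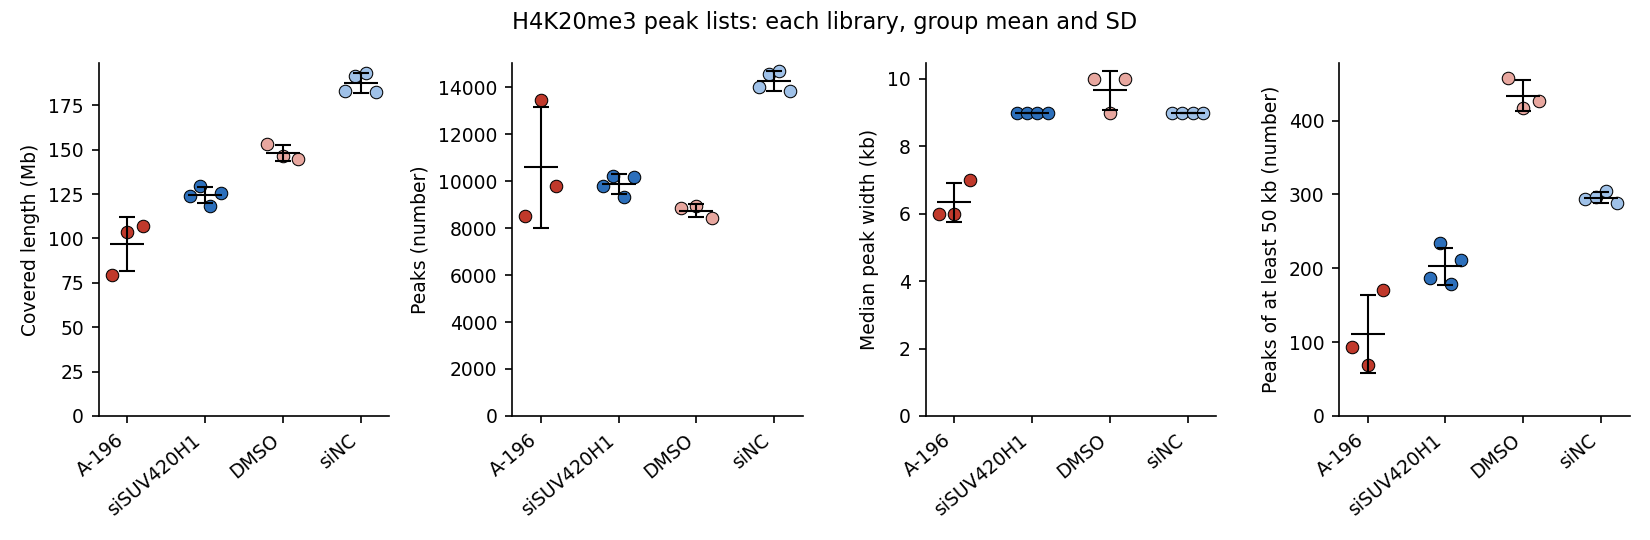
Covered length (Mb), number of peaks, median peak width (kb) and number of peaks of at least 50 kb in each H4K20me3 library, with group means and SD as black bars. The 3 A-196 libraries lie below all 4 siSUV420H1 libraries in covered length, in median width and in peaks of at least 50 kb, but overlap them in number of peaks.

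The knockdown libraries resembled each other far more than the inhibitor libraries did. The Jaccard index, the bases 2 libraries share divided by those covered in either, was 0.689 on average among siSUV420H1 libraries (0.666 to 0.734) and 0.315 among A-196 libraries (0.277 to 0.385). Between the groups it was 0.272 (0.186 to 0.369). Libraries were more alike within than between groups by 0.292 (one-sided exact permutation p = 0.0286, the smallest possible). A-196 replicate 3 shared more with siSUV420H1 libraries, 0.352, than with its own group, 0.334, and A-196 replicate 2 shared 0.194. A-196 libraries shared 0.302 with DMSO and 0.237 with siNC, and siSUV420H1 libraries 0.447 with siNC and 0.346 with DMSO.

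This spread set how much was common. All 3 A-196 libraries covered 34.9 Mb in common, 18.7% of the bases covered in any of them, and all 4 siSUV420H1 libraries 87.3 Mb, or 50.9%. Of the A-196 common bases, 77.7% were common to all 7 libraries, and of the siSUV420H1 common bases 31.1%. A further 4.59 Mb was common to A-196 and absent from every siSUV420H1 library, and 30.5 Mb was the reverse. In A-196 replicate 2, 46.5% of covered bases lay in no other treated library, against 22.9% and 22.2% in replicates 1 and 3 and 3.93% to 9.17% in siSUV420H1 libraries.

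**Figure D2:**
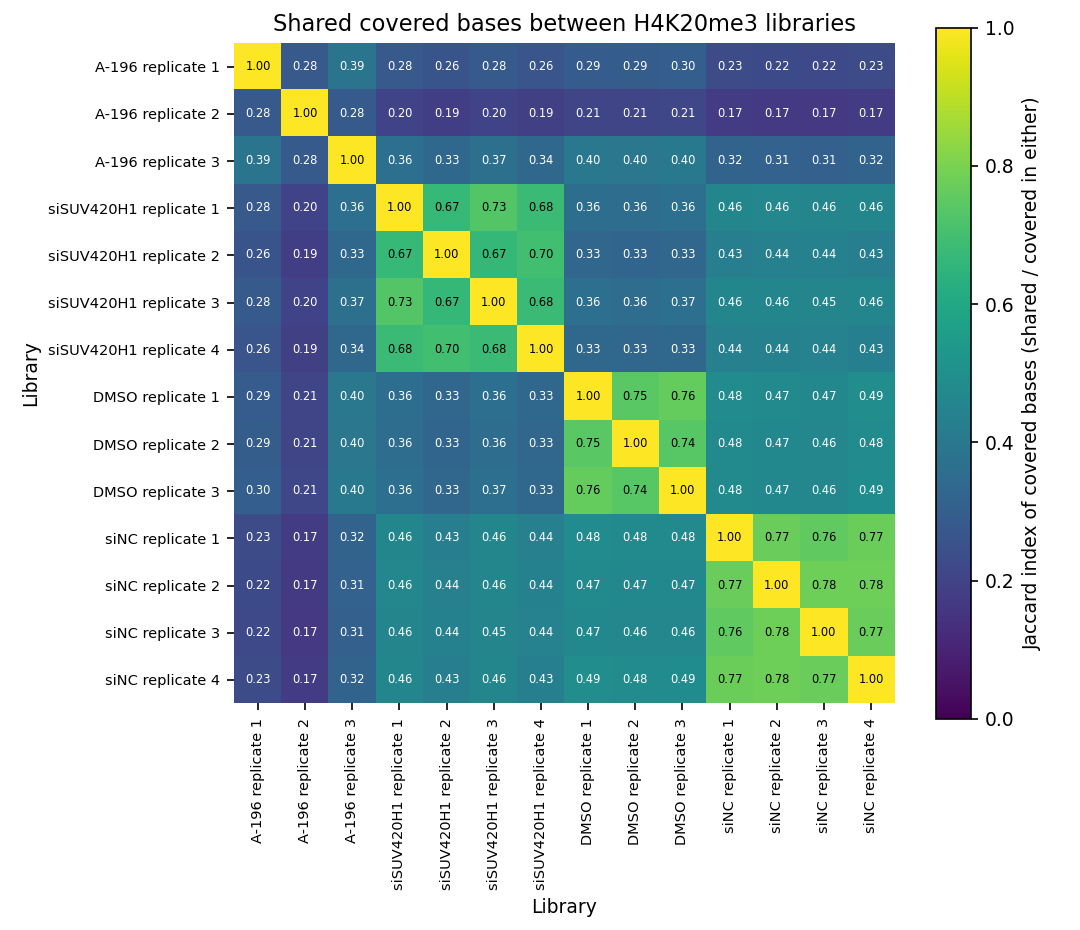
Jaccard index of covered bases for each pair of the 14 H4K20me3 libraries (color scale from 0 to 1, both axes list libraries). The 4 siSUV420H1 libraries form a block of high values from 0.67 to 0.73, whereas the 3 A-196 libraries share 0.28 to 0.39 with each other.

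Merging the peaks of the 7 treated libraries gave 26808 regions. Of these, 422 (1.57%) were marked in every A-196 and no siSUV420H1 library, 2013 (7.51%) in every siSUV420H1 and no A-196 library, and 1919 (7.16%) in all 7. The remaining regions were marked in some libraries of a group, among them 7120 found in A-196 replicate 2 alone. Median widths were 10, 10 and 22 kb. The A-196 class depends most on single libraries, as it held 1150, 853 or 1114 regions without A-196 replicate 1, 2 or 3. With peaks of at least 10 kb alone, 61, 1244 and 778 regions were left in the 3 classes.

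The classes stood differently in the controls. Of the 422 regions marked after A-196 alone, 123 (29.1%) were marked in every control library and 160 (37.9%) in none. Over all 26808 regions these shares were 20.1% and 53.9%. Of the 2013 marked after siSUV420H1 alone, 1515 (75.3%) were marked in every siNC library and 645 in every siNC but no DMSO library. Thus 32.0% of the siSUV420H1 class already differed between the control states. Over all 26808 regions, 31.8% were marked in every siNC library and 6.84% in every siNC but no DMSO library. In the A-196 class, 39 regions (9.24%) were marked in every DMSO but no siNC library, beside 1.83% of all regions. Of the 1919 regions common to the treated libraries, 1773 (92.4%) were marked in every control library, beside 20.1% of all regions.

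**Figure D3:**
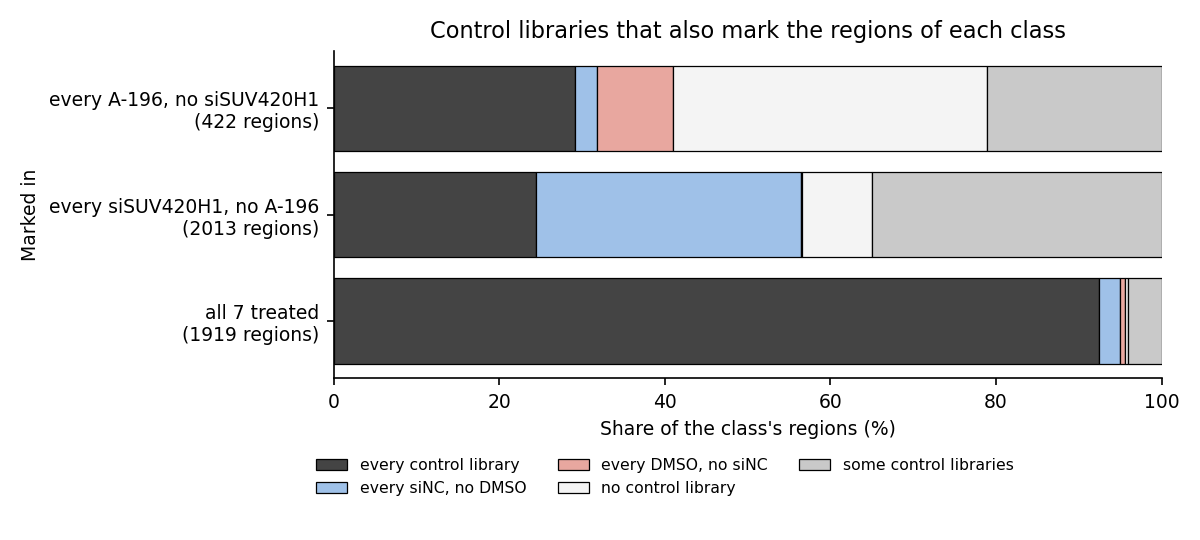
Share of regions (%) in each class of the treated comparison by the control libraries that also mark them. Among the 422 regions marked after A-196 alone 160 are in no control library and 123 in every one, whereas 1773 of the 1919 regions common to all 7 treated libraries are in every control library.

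The stretches with the most regions marked after A-196 alone held 14 and 11 of the 422. On chromosome 7, 11 of them lay within 0.906 Mb (54655001 to 55561000), over or around EGFR, the epidermal growth factor receptor, and VOPP1. Together they were covered over 157, 157 and 130 kb in the A-196 libraries, 0 kb in each siSUV420H1 library, 6 to 13 kb in DMSO and 0 to 6 kb in siNC. Over the whole stretch, peaks covered 471, 417 and 424 kb after A-196, 193 to 203 kb after siSUV420H1, 291 to 301 kb in DMSO and 248 to 266 kb in siNC. Thus more of the stretch lay under peaks after A-196 than in its own control. One region of 35 kb (55209001 to 55244000) reached into the annotated span of EGFR, and the other 10 carried no peak in any control library.

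On chromosome 11, 14 such regions lay within 2.60 Mb (67893001 to 70492000), around CCND1, which encodes cyclin D1, ANO1, a chloride channel, and SHANK2, a synaptic scaffold. They were covered over 121, 189 and 110 kb after A-196 and 0 kb after siSUV420H1, beside 5 to 9 kb in DMSO and 18 to 26 kb in siNC. Peaks covered 457, 903 and 424 kb of the stretch after A-196, 142 to 203 kb after siSUV420H1, 239 to 293 kb in DMSO and 294 to 327 kb in siNC. A region of 34 kb (69578001 to 69612000) lay 29.2 kb from CCND1. EGFR and CCND1 are known as frequently amplified genes in squamous carcinomas of the head and neck. Copy number is not measured by these lists, and a link between it and these values was not tested. The stretches were chosen as those with the most regions of this class chained at gaps of at most 1 Mb, so their values are a description with no test.

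The next stretches by number of regions were marked in the controls too. On chromosome 8 from 125708001 to 128540000, 9 regions were covered over 77, 76 and 100 kb after A-196, 0 kb after siSUV420H1, 84 to 92 kb in DMSO and 31 to 41 kb in siNC. On chromosome 3 from 177090001 to 178391000, 8 regions around TBL1XR1, a corepressor subunit, were covered over 78, 70 and 103 kb after A-196 and 102 to 111 kb in DMSO, and on chromosome 10 from 89863001 to 91004000, 7 regions over 76, 66 and 96 kb and 98 to 103 kb. On these 3 stretches the A-196 libraries were mostly at or below the DMSO level, unlike around EGFR and CCND1. On chromosome 13 from 89349001 to 91389000, 7 regions were covered over 73, 69 and 67 kb after A-196, 31 to 46 kb in DMSO and 2 to 8 kb in siNC.

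Smaller stretches of this class, with 5 regions each, were found over zinc finger genes and near the end of chromosome 2. On chromosome 19 from 57814001 to 58534000, 5 regions over ZNF552, ERVK3-1, ZSCAN22, ZNF584, ZNF324, ZNF446 and ZBTB45 were covered over 39, 44 and 52 kb after A-196, 0 kb after siSUV420H1, at most 9 kb in DMSO and 0 kb in siNC. On chromosome 2 from 241934001 to 242096000, 5 regions were covered over 45, 31 and 34 kb after A-196 and 0 kb in every other library. ZNF256, a zinc finger gene of chromosome 19 (57940833 to 57947706), was covered over its full 10.9 kb window in each A-196 library, 0 kb in each siSUV420H1 and siNC library, and 7.17, 4.17 and 0 kb in DMSO.

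Regions marked after siSUV420H1 alone formed 98 stretches of at least 5 regions, against 10 of the A-196 class. On chromosome 12 from 75016001 to 79846000, 18 of them lay over NAP1L1, OSBPL8, NAV3, SYT1 and PPP1R12A and were covered over 162 to 167 kb after siSUV420H1, 0 kb after A-196, 35 to 63 kb in DMSO and 144 to 153 kb in siNC. On chromosome 5, 17 lay in a stretch without coding genes (104278001 to 106881000), covered over 191 to 215 kb after siSUV420H1 and 214 to 223 kb in siNC. In these regions siSUV420H1 was near its own control, but over the whole stretches it was lower, with 387 to 450 kb against 724 to 835 kb in siNC on chromosome 12 and 233 to 281 kb against 658 to 794 kb on chromosome 5. The whole stretches held 77 to 151 kb and 0 to 16 kb after A-196. Near the end of chromosome 3 (167001 to 2357000), 13 regions over the neural adhesion genes CHL1, CNTN6 and CNTN4 were covered over 138, 209, 134 and 155 kb after siSUV420H1, 31 to 68 kb in siNC and 0 kb in DMSO and A-196. On chromosome X from 4438001 to 8176000, 14 regions over VCX3A, VCX2 and their surroundings were covered over 176, 194, 138 and 164 kb after siSUV420H1, beside 27 to 50 kb in siNC and 0 kb in DMSO. On these stretches of chromosomes 3 and X the whole span was also covered further after siSUV420H1, over 470 to 928 kb and 313 to 587 kb, than in siNC, over 101 to 259 kb and 88 to 152 kb.

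Regions common to all 7 libraries included the widest domains, several of them over zinc finger arrays. The widest, 728 kb on chromosome 7 (56089001 to 56817000), held PHKG1, CHCHD2 and NUPR2 and was covered over 702, 672 and 721 kb after A-196 and 501 to 529 kb after siSUV420H1. Next to it, the domain of ZNF479 and ZNF716 (56936001 to 57614000) was covered over 626 to 676 kb and 630 to 655 kb, with the groups overlapping. The array from ZNF722 to ZNF736 on chromosome 7 (63775001 to 64381000) was covered over 279, 193 and 490 kb after A-196 and 547 to 579 kb after siSUV420H1, beside 154 to 159 kb in DMSO and 423 to 461 kb in siNC. On chromosome 19, shared regions lay over 35 genes from ZNF101 to ZNF254 (19665001 to 24162000), and peaks across this stretch covered 1691, 1473 and 2973 kb after A-196 and 2953, 2826, 2792 and 2696 kb after siSUV420H1. A-196 replicate 3 thus ranked with the siSUV420H1 libraries, above the 1390 to 1687 kb of the controls, and replicates 1 and 2 ranked with the controls.

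Within the shared regions A-196 left less of the span covered. Peaks covered 62.7% ± 11.8 of it after A-196 and 77.3% ± 0.815 after siSUV420H1, with no overlap of the groups (two-sided p = 0.0286 by exact permutation, the smallest possible). DMSO libraries covered 72.6% and siNC libraries 78.1%. In 613 shared regions (31.9%) all A-196 libraries had a shorter covered length than all siSUV420H1 libraries, and in 175 (9.12%) a longer one, and the median ratio of A-196 to siSUV420H1 was 0.855. Shared regions held 48.8% ± 9.67 of a library's covered bases after A-196 and 46.4% ± 1.82 after siSUV420H1, with the groups overlapping.

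Among 19866 coding genes, 175 (0.881%) were marked in every A-196 and no siSUV420H1 library, 422 (2.12%) in the opposite class and 865 (4.35%) in all 7. The A-196 libraries often marked a gene at different places: in 101 of the 175 they shared no 200 bp, against 7 of the 422 among the siSUV420H1 libraries. Without A-196 replicate 1 or 3 the 175 became 375 or 445. In the controls, 34 of the 175 were marked in every library and 77 (44.0%) in none, beside 44.6% of all genes marked in any treated library, and of the 422, 327 (77.5%) were marked in every siNC library, beside 42.8%. Covered length was higher in every A-196 library at 305 of 5703 marked genes (5.35%) and lower at 1075 (18.8%). At single genes 1308 reached the smallest exact permutation p of 0.0286, and 0 passed Benjamini-Hochberg adjustment over the 5703, where the smallest adjusted p was 0.125.

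The genes marked after A-196 alone with the longest covered length included the following. CTNND2 (chromosome 5, 10971836 to 11904446), which encodes delta-catenin of neuronal junctions, was covered over 31, 56 and 30 kb in A-196 libraries and 0 kb in the other 11, but the 3 shared no base. MUC16 (chromosome 19, 8848844 to 9065751), the membrane mucin known as CA125, was covered over 24, 44 and 27 kb after A-196, 0 kb after siSUV420H1, 20 to 27 kb in DMSO and 6 to 7 kb in siNC. The lowest A-196 value at MUC16 lay within the DMSO range, and 19 kb was common to the 3 libraries. TPRG1 (chromosome 3, 188997227 to 189325304), a gene beside TP63, was covered over 28, 30 and 26 kb after A-196 and 0 kb after siSUV420H1, from 72.3 to 78.3 kb in DMSO and 70 to 77 kb in siNC. KCNMA1 (chromosome 10, 76869602 to 77637808), a calcium-activated potassium channel, held 20, 13 and 26 kb, and AUTS2 (chromosome 7, 69598475 to 70793506), a neurodevelopmental regulator, held 17, 39 and 27 kb. MAGI2 (chromosome 7, 78017055 to 79453667), a junctional scaffold, held 10, 49 and 5 kb with no base in common. RANBP2 on chromosome 2, whose annotated span overlaps SH3RF3, has near-identical copies, so its 12, 43 and 10 kb are uncertain. LOC112268076 (chromosome 11, 67812009 to 67966160) held 14, 72.2 and 25 kb and belongs to the CCND1 stretch above. All of these were at 0 kb in each siSUV420H1 library.

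Genes marked after siSUV420H1 alone were covered more evenly. RAP1GDS1 (chromosome 4, 98261384 to 98443858), an exchange factor for small GTPases, was covered over 38, 36, 39 and 36 kb after siSUV420H1, 35 kb of it in common, over 0 kb after A-196, 23 to 33 kb in siNC and 0 to 6 kb in DMSO. ZBTB20 (chromosome 3, 114314500 to 115147288), a zinc finger repressor, was covered over 22, 33, 31 and 34 kb after siSUV420H1, 8 to 14 kb in siNC, and 0 kb in DMSO and A-196. All 4 knockdown libraries of ZBTB20 thus lay above their control. PRR16 held 25 to 28 kb after siSUV420H1 and 16 to 21 kb in DMSO, AGPS, an enzyme of ether lipid synthesis, 21 to 28 kb and 11 to 15 kb, and ME3, the mitochondrial malic enzyme, 20 to 27 kb and 0 to 28 kb. At PRR16 and AGPS every DMSO library was marked while every A-196 library was at 0 kb. EPHA5, an ephrin receptor, held 23 to 27 kb, GRIA1, a glutamate receptor subunit, 22 to 28 kb, MAN1A2, a Golgi mannosidase, 18 to 28 kb, and RIC1 18.6 to 31.6 kb, all at 0 kb after A-196. SLCO1B3-SLCO1B7, a liver transporter locus that overlaps SLCO1B3, held 20 to 33 kb.

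Some genes marked in both groups differed in covered length. PTPRN2 (chromosome 7, 157539056 to 158587823), a receptor phosphatase of secretory vesicles, was covered over 178, 233 and 183 kb after A-196 and 105, 86, 101 and 84 kb after siSUV420H1. Both treated groups lay above the 41 to 56 kb of the controls at PTPRN2. CDH18, a cadherin, was covered over 78, 88 and 87 kb after A-196 and 31 to 36 kb after siSUV420H1, beside 151 to 204 kb in DMSO and 77 to 87 kb in siNC. ABCC4, a nucleotide and drug exporter on chromosome 13, was covered over 50, 59 and 56 kb after A-196, 0 to 5 kb after siSUV420H1, 86 to 97.2 kb in DMSO and 9 to 10 kb in siNC. RMDN2 held 48, 29 and 78.1 kb against 13 to 22 kb, and MACROD2 102, 149 and 69.2 kb against 57 to 68 kb. With peaks of at least 10 kb the difference at MACROD2 turned, to -4.83 kb.

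In the other direction, MDGA2 (chromosome 14, 46839623 to 47675605), a synaptic adhesion protein, was covered over 40, 44 and 71 kb after A-196 and 503, 667, 393 and 588 kb after siSUV420H1. LRFN5, another synaptic adhesion gene of chromosome 14, was covered over 0, 37 and 48 kb after A-196 and 222 to 270 kb after siSUV420H1, and PRKD1, a protein kinase gene there, over 18, 17 and 41 kb and 177 to 218 kb. DMSO libraries held at most 5 kb at MDGA2 and 0 kb at the other genes, whereas siNC libraries held 282 to 507 kb, 103 to 195 kb and 125 to 189 kb. At these genes A-196 was above DMSO in most libraries and siSUV420H1 was near or above siNC. CAST (chromosome 5, 95961429 to 96774683), the calpain inhibitor, whose span overlaps ELL2, PCSK1 and ERAP1, was covered over 11, 5 and 8 kb after A-196 and 134 to 162 kb after siSUV420H1, from 92 to 110 kb in DMSO and 199 to 219 kb in siNC. GPC5, a glypican on chromosome 13, was covered over 35, 71 and 87 kb and over 102, 315, 133 and 280 kb, with an exact permutation p of 0.0857 and DMSO at 0 kb.

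**Figure D4:**
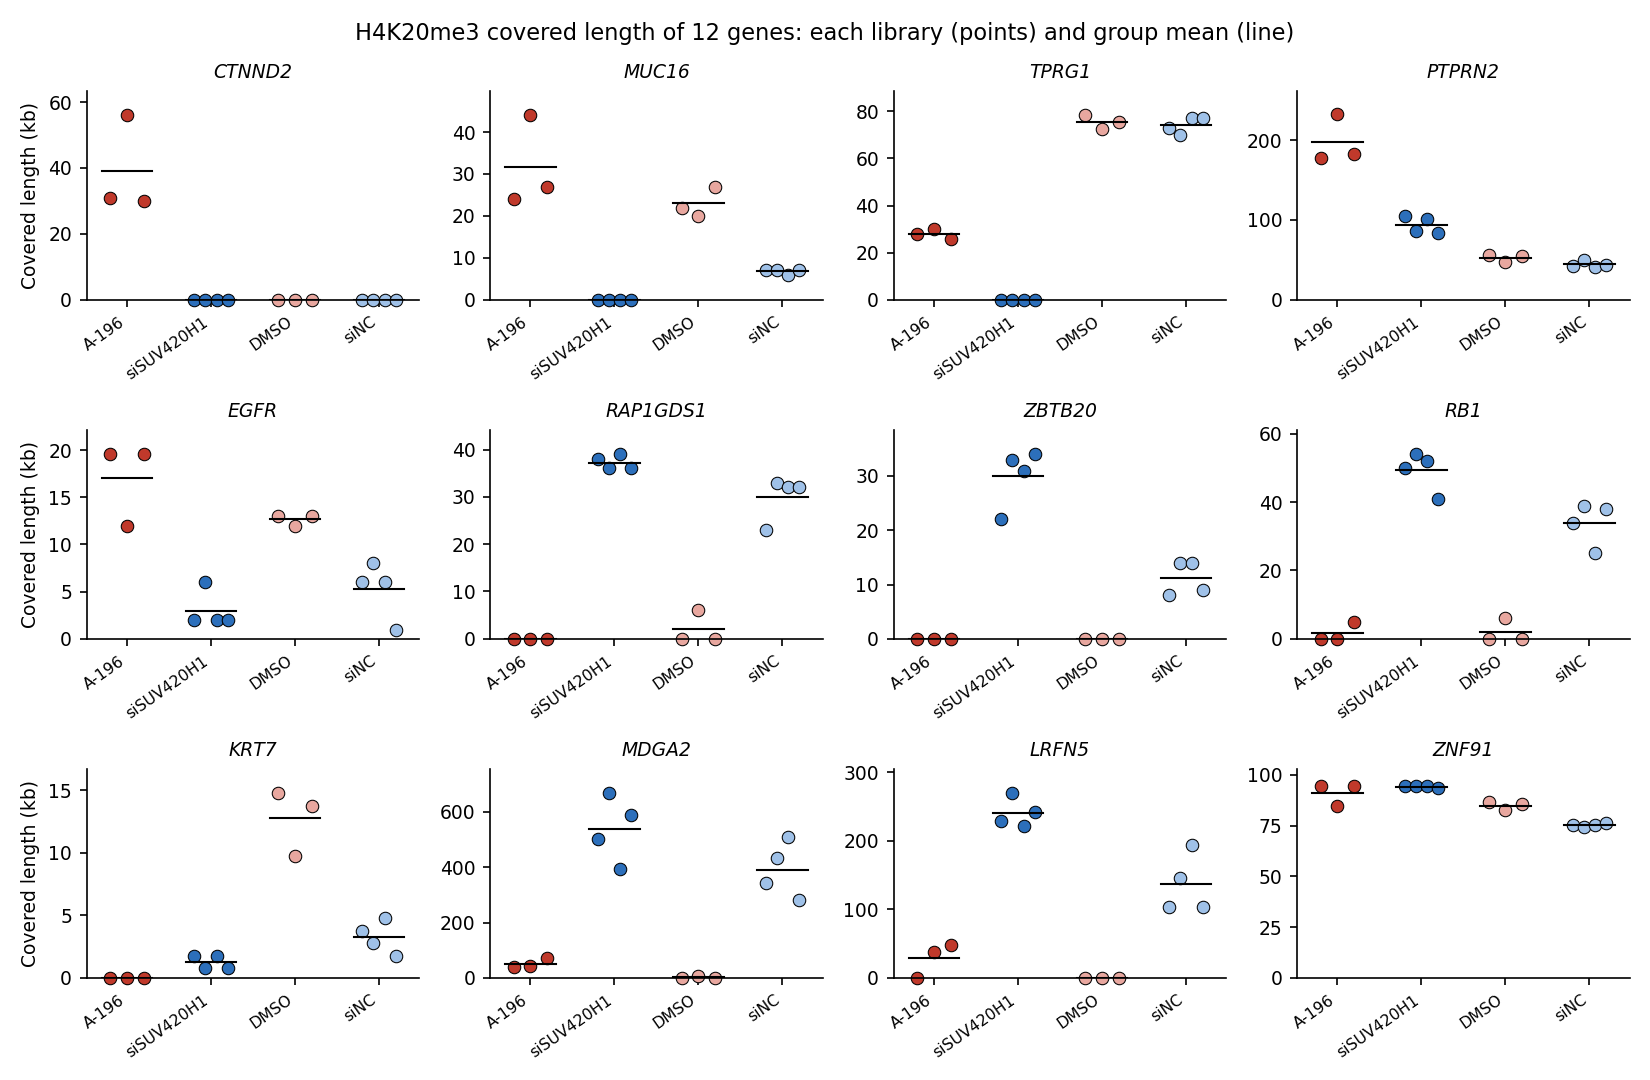
Covered length (kb) of 12 genes in each H4K20me3 library, as points with a line at the group mean. CTNND2, MUC16 and TPRG1 are at 0 kb in each siSUV420H1 library, RAP1GDS1, ZBTB20 and KRT7 at 0 kb in each A-196 library, and MDGA2 and LRFN5 are near 0 kb in DMSO but not in siNC.

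A common starting set is given by the 1668 genes marked in all 7 control libraries. Of these, 769 (46.1%) were still marked in all 7 treated libraries, 34 (2.04%) in every A-196 and no siSUV420H1 library, 103 (6.18%) in the opposite class and 99 in none. A-196 libraries all kept 844 of the 1668 (50.6%), and siSUV420H1 libraries all kept 1238 (74.2%). Of the 844, 91.1% were kept in every siSUV420H1 library, and of the 1238, 62.1% in every A-196 library. Thus most of what A-196 left was also left by the knockdown. Without A-196 replicate 2, an alternative added after seeing the data, the 34 became 52, and with peaks of at least 10 kb the 769 became 349 and the 34 became 7. CXCL10 and CXCL11, interferon-induced chemokines marked over 6.38 and 6.39 kb in every control library, were at 0 kb in all 7 treated libraries, as was CXCL9.

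The largest gene group examined was that of C2H2 zinc finger genes, DNA-binding proteins that often silence retroelements. A-196 libraries marked 318 to 351 of its 563 members and siSUV420H1 libraries 347 to 353, on average 333 ± 16.7 and 351 ± 2.87 (exact permutation p = 0.0857, adjusted p = 0.310 over 19 lists). In all, 253 members (44.9%) were marked in all 7 libraries, beside 4.35% of all coding genes. There were 13 members (2.31%) in the A-196 class and 18 (3.20%) in the siSUV420H1 class, beside 0.881% and 2.12% of all coding genes. Among genes marked in any treated library these were 13 and 18 of 408 members, beside 175 and 422 of 5703 genes. On that base the A-196 share was near that of all marked genes and the siSUV420H1 share was lower. Of 283 marked in every control library, 233 were kept in all 7, 0 in every A-196 and no siSUV420H1 library, and 2, ZNF391 and ZNF212, in the opposite class. ZNF91, a repressor of SVA retroelements, was covered over 94.5, 84.5 and 94.5 kb after A-196 and 93.5 to 94.5 kb after siSUV420H1, above 74.5 to 76.5 kb in siNC. DMSO libraries held 82.5 to 86.5 kb at ZNF91, a range that includes A-196 replicate 2. ZNF718 on chromosome 4 was likewise near its full window, at 72.8 to 81.8 kb and 79.8 to 81.8 kb. RPSA2, which overlaps ZNF681, held 75.5 to 104 kb and 94.5 to 101 kb.

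Single zinc finger genes went both ways. ZNF713 on chromosome 7 was covered over 37.2, 47.2 and 50.8 kb after A-196 and 25.2 to 27.2 kb after siSUV420H1, and ZNF107 over 34.4 to 45.6 kb and 29.6 to 31.6 kb. ZNF43 on chromosome 19 was covered over 10, 13 and 41.1 kb after A-196 and 45.1 to 51.1 kb after siSUV420H1, ZNF208 over 23, 20 and 61.1 kb and 65.1 to 67.9 kb, and ZNF680 over 31.9, 19 and 41.9 kb and 58 to 64 kb. At ZNF43 and ZNF208 the value of A-196 replicate 3 was close to the siSUV420H1 range. ZKSCAN7 held 17.8 to 22.8 kb, ZNF354C 11 to 19 kb and ZNF512 10 to 18.0 kb after siSUV420H1, all with 0 kb after A-196. ZNF138 held 12, 12 and 18 kb and ZSCAN25 10, 18 and 4.04 kb after A-196, with 0 kb after siSUV420H1.

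Keratin-associated proteins, which cross-link hair keratin, were the 1 list of 19 whose groups did not overlap. A-196 libraries marked 4.67 ± 0.577 of 94 members and siSUV420H1 libraries 9.5 ± 1.29, beside 21.7 in DMSO and 15.2 in siNC (exact permutation p = 0.0286, adjusted p = 0.310). KRTAP2-3 was covered over its full 4.88 kb window in every library of siSUV420H1, DMSO and siNC and over 0 kb after A-196. KRTAP2-2 held 4.23 to 4.73 kb and KRTAP17-1 1.71 to 2.71 kb after siSUV420H1, both with 0 kb after A-196, whereas KRTAP2-1 was marked in all 7. Keratins numbered 2.33 ± 1.53 and 4.25 ± 1.26 of 55, against 17 in DMSO and 12 in siNC. KRT7, a keratin of simple epithelia, held 0.758 to 1.76 kb after siSUV420H1, 0 kb after A-196 and 9.76 to 14.8 kb in DMSO. KRT34, a hair keratin, held 7.82 kb in A-196 replicate 1, 0 kb in the others and 8.82 to 10.1 kb after siSUV420H1.

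Squamous genes did not differ between the groups beyond the threshold, and presence of the mark over them does not check the labelled cell type. Of 38, A-196 libraries marked 7.67 ± 2.89 and siSUV420H1 libraries 5.25 ± 0.5, beside 13.7 in DMSO and 12.8 in siNC (exact permutation p = 0.0857, adjusted p = 0.310). EGFR was covered over 19.6, 12 and 19.6 kb after A-196 and 1.98 to 5.98 kb after siSUV420H1. TP63, the master regulator of squamous cells, was covered over 68.3, 57.3 and 110 kb after A-196 and 50.3 to 58.3 kb after siSUV420H1, beside 203 to 234 kb in DMSO. KRT5, KRT14, ITGB4 and CDH1, further epithelial markers, carried no peak in any library, and no list here measures expression. DSG3, also such a marker, held 5.26 kb in DMSO replicate 3, 2.26 to 3.26 kb in siNC replicates 2 to 4 and 0 kb in every other library. In the epidermal differentiation complex, 12.3 ± 3.21 of 60 members were marked after A-196 and 9 ± 1.41 after siSUV420H1 (exact permutation p = 0.114). Its repetin gene RPTN held 6.41, 4.41 and 6.41 kb and 1.41 kb in every siSUV420H1 library, and S100A10 held 0.859 kb in each A-196 library and 0 kb after siSUV420H1 and in siNC.

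Clustered protocadherins, neuronal adhesion genes in tandem on chromosome 5, were marked at 20.3 ± 2.31 of 53 after A-196 and 23.5 ± 1 after siSUV420H1 (exact permutation p = 0.114), and 18 were marked in all 7. The nested gamma genes share their last exons and hence their peaks. PCDHGA1, which spans them, was covered over 40.5, 18.5 and 58.5 kb after A-196 and 65.5 to 72.5 kb after siSUV420H1, beside 30.5 to 34.5 kb in DMSO. Long adhesion and synaptic genes numbered 45 ± 7 and 38.8 ± 4.35 of 107, with 5 in the A-196 class (CNTNAP5, NLGN1, CTNND2, CDH23 and GRID1), 3 in the siSUV420H1 class (SEMA3D, CDH5 and CDH2) and 21 in all 7. These are 4.67%, 2.80% and 19.6% of the list, beside 0.881%, 2.12% and 4.35% of all coding genes. Among genes marked in any treated library they are 5, 3 and 21 of 68, beside 175, 422 and 865 of 5703. On that base the share in the siSUV420H1 class was lower than that of all marked genes.

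Of all coding genes, 13.6% were marked in the mean A-196 library and 11.8% in the mean siSUV420H1 library, and the immune lists stood on both sides of these shares. Interferon-stimulated genes numbered 8.33 ± 1.53 of 60 after A-196 and 10 ± 2.16 after siSUV420H1 (13.9% and 16.7%), against 19.3 in DMSO and 23 in siNC. DDX60, an antiviral helicase, held 14, 15, 11 and 8 kb after siSUV420H1 and 0 kb in the other 10 libraries, and SAMD9, an antiviral factor, was marked in all 7. SP100, a nuclear body protein, held 7 to 17 kb after siSUV420H1 and 5 kb in A-196 replicate 3 alone. Chemokines numbered 4.33 ± 1.53 and 3.5 ± 0.577 of 46 (9.42% and 7.61%), and CCL28, a mucosal chemokine, was covered over 38, 38 and 40 kb after A-196 and 6 to 17 kb after siSUV420H1. Antigen presentation genes numbered 2 ± 2 of 36 after A-196 and 0 in each siSUV420H1 library.

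Among genes of the heterochromatin machinery, 3 of the 11 marked in any treated library (27.3%) had a shorter covered length in every A-196 library, and among those of replication and the cell cycle 4 of 10 (40%), beside 18.8% of all marked genes. None of these genes passed the adjustment over all genes. RB1 (chromosome 13, 48303751 to 48481890), the retinoblastoma tumor suppressor, whose span overlaps LPAR6, was covered over 0, 0 and 5 kb after A-196 and 50, 54, 52 and 41 kb after siSUV420H1, above 25 to 39 kb in siNC. DMSO libraries held 0, 6 and 0 kb at RB1, about as much as after A-196. SETDB1, an H3K9 methyltransferase, held 9 kb in every siSUV420H1 library and 0 kb after A-196 and in DMSO. EHMT1, another H3K9 methyltransferase, held 0, 6 and 5 kb and 19 to 25 kb, beside 7 to 13 kb in DMSO and 18 kb in siNC. ATR, a DNA damage kinase, held 11 to 14 kb after siSUV420H1 and 0 kb after A-196, CCNB2 2.04 kb and 0 kb, RAD51B 132 to 160 kb and 29, 45 and 65.2 kb, and CDK6 53 to 58 kb and 20, 0 and 33.6 kb. In DMSO and siNC, ATR held 0 kb and 10 to 11 kb, and CCNB2 at most 0.045 kb and 2.04 kb. At RB1, ATR and CCNB2 the control states thus already differed in the same direction. RAD51B held 341 to 376 kb in DMSO and 140 to 162 kb in siNC, and CDK6 55.6 to 62.6 kb and 50.6 to 69.6 kb. Both lists overlapped between the groups in the number of marked members, 3.67 ± 3.79 and 3.5 ± 0.577 of 38 for the machinery of heterochromatin and 3.67 ± 0.577 and 4.5 ± 0.577 of 41 for replication and the cell cycle.

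Imprinted genes numbered 15.3 ± 5.77 of 44 after A-196 and 11.5 ± 1.29 after siSUV420H1 (exact permutation p = 0.2), beside 4 in DMSO and 11.5 in siNC. SNRPN, an imprinted splicing gene of chromosome 15 that overlaps SNURF, was covered over 5, 7 and 61.1 kb after A-196, 99.7 to 131 kb after siSUV420H1 and 0 kb in DMSO. KCNQ1, a potassium channel gene, was covered over 50, 49.0 and 45 kb and over 35 to 38 kb. Olfactory receptors numbered 26.3 ± 3.51 and 19.2 ± 3.3 of 387. OR4K14 on chromosome 14 held 9.16 kb in every siSUV420H1 and siNC library and 0 kb after A-196 and in DMSO, and OR8I2 on chromosome 11 held 4.24, 4.24 and 2.69 kb after A-196 alone. Cancer-testis genes numbered 7 ± 3 and 4 ± 0.816 of 100, and nucleic acid sensing genes 4 ± 1.73 and 3 ± 1.15 of 27. HOX and histone genes averaged 1 member after A-196, all in 1 library, and 0 after siSUV420H1. Markers of other cell types numbered 4.67 ± 1.53 and 5.25 ± 0.5 of 28. Of these, CD14, LUM and CDH5 (10.7%, beside 2.12% of all coding genes) were in the siSUV420H1 class, and FAP was marked in all 7. CD14, LUM and CDH5 were also marked in 4, 2 and 3 siNC libraries, and LUM held only 0.372 to 1.37 kb after siSUV420H1. Of the 19 lists, 0 passed the adjustment in the exact permutation test, and 1 had an unadjusted p below 0.05.

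The location of the remaining mark differed by chromosome. Chromosome 14 held 3.48% ± 0.451 of the covered bases after A-196 and 9.37% ± 0.801 after siSUV420H1, beside 2.49% in DMSO and 5.58% in siNC. Chromosome 7 held 9.95% ± 0.520 and 7.55% ± 0.228, beside 8.32% and 7.27%. The share of chromosome 4 was 3.38% ± 0.291 and 4.95% ± 0.195, and that of chromosome 11, with the CCND1 stretch, 3.69% ± 0.648 and 2.37% ± 0.120. The outer 1 Mb of chromosomes was counted inward from the first and the last annotated gene or peak, which can lie far from the chromosome's tip. It held 3.56% ± 0.365 after A-196 and 2.91% ± 0.143 after siSUV420H1, above 2.06% in DMSO and 1.75% in siNC. Chromosome 19, rich in zinc finger genes, held 8.14% ± 1.66 and 6.87% ± 0.504 with the groups overlapping, against 4.69% and 3.56% in the controls. Groups did not overlap in 13 of 25 such measures, 8 higher and 5 lower after A-196. Each of the 13 had an exact permutation p of 0.0286 and an adjusted p of 0.0549, so 0 passed the threshold of 0.05. With peaks of at least 10 kb, 15 passed.

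**Figure D5:**
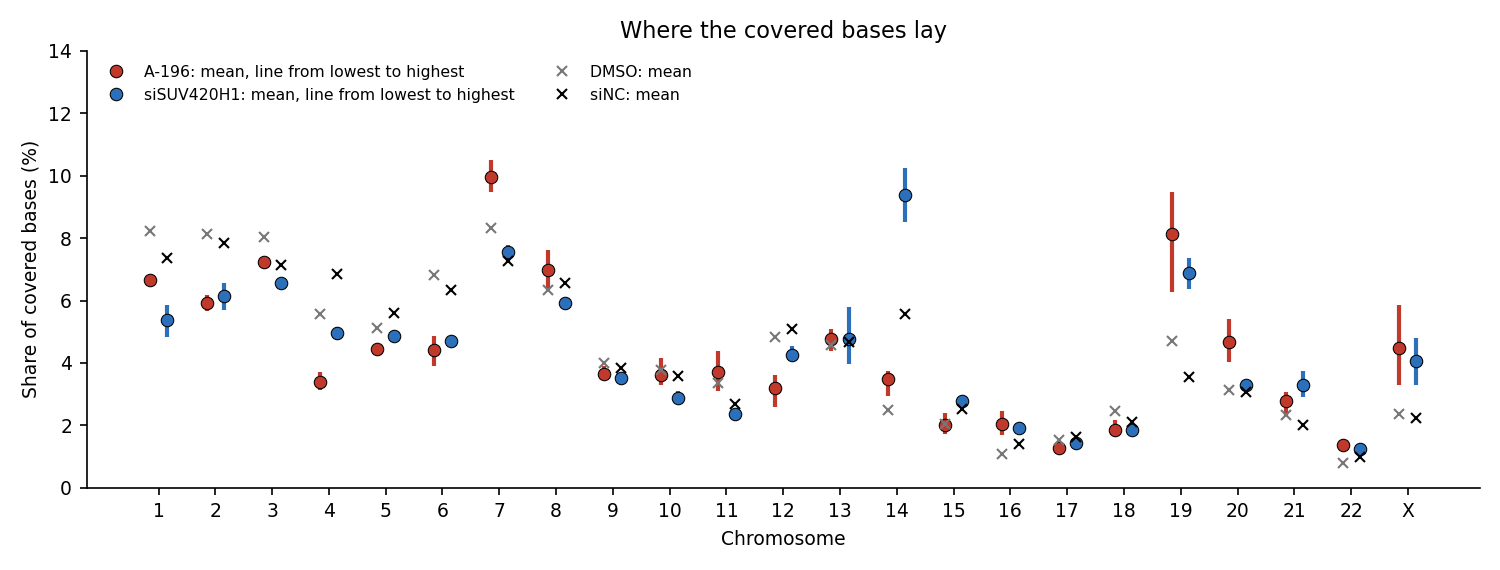
Share of a library's covered bases (%) on each chromosome, as the mean with a line from the lowest to the highest library for A-196 and siSUV420H1 and as crosses for the means of DMSO and siNC. Chromosome 14 holds 9.37% after siSUV420H1 and 3.48% after A-196, and chromosome 7 holds 7.55% and 9.95%.

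The widest chromosome 14 domain common to all 7 libraries lay 79 kb from NOVA1 (26677001 to 27360000) and was covered over 98, 74 and 201 kb after A-196 and 598, 667, 553 and 625 kb after siSUV420H1. DMSO libraries held 0 kb there and siNC libraries 494 to 583 kb. The widest region marked after siSUV420H1 alone was on the same chromosome (42341001 to 42427000, 86 kb), 436 kb from LRFN5, with 43, 74, 32 and 68 kb after siSUV420H1, 8 to 38 kb in siNC and 0 kb in DMSO and A-196.

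Setting each treated group against its own control asked whether the arms changed by different amounts. Of 50 measures, 0 passed in the exact permutation within arms adjusted over all of them, 7 had an unadjusted p below 0.05, and the smallest adjusted p was 0.0952. The change in the number of peaks differed by 6246 peaks (adjusted p = 0.0952 in the exact permutation test), from 8739 in DMSO to 10589 after A-196 and from 14270.2 in siNC to 9874.5 after siSUV420H1. Without A-196 replicate 3, 5 of the 50 passed.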

How the data were processed

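H4K20me3 CUT&RUN had been done in 14 libraries of HN-SCC-151 cells, of which 7 were treated (3 A-196, 4 siSUV420H1) and 7 were controls (3 DMSO, 4 siNC), and 10 other samples of the series were not used here. The authors deposited 1 broad peak list per library, holding the chromosome, start and end of each peak, a position with no other value: no counts, heights or p-values. The build was hg38, per the submitters' processing notes, which also name cutadapt 4.4, Bowtie, Picard 2.27.3 and bedtools 2.30.0. No peak caller is named (not given in the sources used here). Positions fell on multiples of 1 kb, no peak was under 5 kb and no gap under 2 kb, so a width is known to the kb only and depth gives no interval.

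Covered lengths, overlaps and classes were computed with Python 3.11.15, numpy 2.4.6 and pandas 2.3.3. Gene spans came from a RefSeq gene table of GRCh38.p14 without exons, promoters and their strand from a separate RefSeq promoter table of that build, and 190 of 20056 coding symbols off the primary chromosomes were left out. Overlapping genes share peaks. Groups were compared by two-sided exact permutation over the 35 assignments of 7 libraries, with Benjamini-Hochberg adjustment within each family of measures (6 of libraries, 19 of gene lists, 25 of location and 50 of arms) and a threshold of 0.05. The scripts were tested on simulated peak lists.

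The genes named were the 10 longest-covered of each treated-only class, the 5 largest differences each way between groups that do not overlap, the 5 with the most bases common to all 7, up to 3 of each class per list, and the chemokines and KMT5 genes. The 5 widest regions of each class were named in the same way. Other genes named, and the stretches of regions, were chosen after their values were seen. Members and lists were chosen with earlier results of these data known. Alternatives covered peak width, overlap, flanks, merging, call rules, group medians, single libraries left out and a replicate block.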

Additional observations from a re-analysis of the deposited data

Results flagged for a closer look

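The 4 siSUV420H1 libraries were tested for a single library apart in 22 groups of values, and the siNC libraries were not among these. In 3 groups a library was singled out, each by a gap that made up the whole range of the group. Clustered protocadherins had 25 marked members in 1 library and 23 in each of the others. Squamous epithelial genes had 6 in 1 library and 5 in the others, as did markers of other cell types, with 6 against 5. Chance singles out about 1 in 20 groups, and with small whole counts a difference of 1 gene is enough.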

How the results depend on the processing

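Depth and peak height are unknown, so a mark below the calling threshold cannot be seen, and 3 against 4 libraries cannot give a p below 0.0286. Apart from single libraries left out, 60 main values and counts stayed on their side, 8 no longer passed, 16 counts moved by over 1.5 times and 6 turned. The cause was not tested unless named. With peaks of at least 10 kb, the differences turned to -2284 peaks, 1 kb in median and 1.59 kb in mean width and -646 marked genes (peaks and genes then passed), and the difference of arms in marked genes to -269. Regions became 61, 1244 and 778, A-196-only genes 19, genes of all 7 366, control genes kept in all 7 349 and in A-196 alone 7, and 15 location measures passed. Turned too were chromosome 16 (-0.39), chromosome 21 (0.86), gene spans (-1.98), MACROD2 (-4.83), KCNQ1 (-2.67), SYCP1 (-4.25) and PCDH9 (-15.2). Group medians gave -0.26 log2 Mb, -187 peaks, -3 kb and -3.31 kb in width, -106 peaks of at least 50 kb and -40 marked genes, and the calls for length, both widths and wide peaks were lost. Marked in more than 50% of 1 group and in at most 1 library of the other gave 2461, 4336 and 3124 regions and 801 and 935 genes. Requiring 50% of the span gave 14, 55 and 147 genes. The heterochromatin list was -0.917 with equal numbers of the widest peaks and -0.167 with 1000 bp, and chromosome 13 was 0.0138 with the widest peaks.

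Whether replicate numbers pair the libraries was not settled. Same-number correlations across genes were small, at 0.00605, 0.0301 and 0.0211, beside -0.0326 to 0.0164 for unlike numbers. With a replicate block (smallest p 0.25) the differences were -0.37 log2 Mb, -2.67 and -3.35 kb in median and mean width, -89 wide peaks and 0.164 for chromosome 13. Each A-196 library correlated best with its own number.

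With single libraries left out no p below 0.0667 was possible between the 2 groups, so those tests could not pass. Covered length ran from -0.45 to -0.24 log2 Mb, median width from -3 to -2.5 kb, mean width from -4.07 to -2.46 kb, peaks of at least 50 kb from -121.75 to -70.75, likeness from 0.227 to 0.397, peaks from -723 to 1756.5, marked genes from -130 to 643, A-196-only regions from 431 to 1150, A-196-only genes from 178 to 445 and arms measures passing from 0 to 5. Control genes kept in A-196 alone were 52 without A-196 replicate 2. Differences near 0 that turned ran from -1.25 to 0.25 (other cell types), -2 to 1.5 (heterochromatin), -0.184 to 0.0885 (chromosome 18), -0.273 to 0.333 (13), -0.0969 to 0.278 (16), -0.288 to 0.998 (X), -1.30 to 2.42 (gene spans), -0.11 to 0.10 (arms, covered length), -29.4 to 2.74 (ZNF420), -4.75 to 0.249 (ZNF91), -12.4 to 1.59 (RPSA2), -4.33 to 14.5 (ZNF678) and -1.5 to 2.5 (SPRR2B).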
